A study of Mus musculus with 78 samples.

Results

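The endoplasmic reticulum (ER) chaperones and degradation factors were 10 genes whose products fold secretory and membrane proteins or remove those that fail to fold. They were HSPA5, HSP90B1, HYOU1, CALR, CANX, PDIA6, P4HB, CRELD2, SEL1L and HERPUD1, chosen by name, and all 10 were among the 2755 genes of the count table and the 2205 genes tested. Male B6C3F1 mice drank water with 3.5 g/L dichloroacetic acid (DCA) from 4 weeks of age, for different lengths of time, to ask what exposure leaves behind after it ends. Liver RNA was measured in formalin-fixed, paraffin-embedded sections with TempO-Seq, in which pairs of probes are ligated on their target RNA, amplified and counted. The S1 mice drank DCA for 10 weeks and were examined at week 10 (S1-10, n = 6), 32 (S1-32, n = 6), 57 (S1-57, n = 6) or 78 (S1-78, n = 6). The S2 mice drank it for 32 weeks and were examined at week 32 (S2-32, n = 6) or 78 (S2-78, n = 4), and the S3 mice for 57 weeks with examination at week 57 (S3-57, n = 5) or 78 (S3-78, n = 4). Direct-78 mice drank DCA for all 78 weeks (n = 3). Control mice drank water alone and were examined at week 10 (Control-10, n = 4), 32 (Control-32, n = 6), 57 (Control-57, n = 6) or 78 (Control-78, n = 6). The mice were 14, 36, 61 or 82 weeks old at these examinations, and the 13 groups held 68 libraries. A further 10 libraries had been left out by the authors, 3 of them from Direct-78. The paper describes a quality filter that excluded samples whose gene ranking strayed too far from the average. Fixation and storage break RNA, and the panel attenuates abundant transcripts, so levels were not compared between genes. Each library came from sections with every cell type of the block, and fewer cells of a type and less RNA per cell cannot be told apart. The libraries held 541245 to 4285848 counts each (median 2162678).

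Proteins that enter the ER are held by Hsp70 and Hsp90 chaperones, by lectins that read their sugars and by isomerases that form disulfide bonds. Chains that do not fold are passed through the membrane to the proteasome, a route called ER-associated degradation. When unfolded proteins build up, the sensors ATF6, IRE1 and PERK raise the transcription of most of these genes, the first acting through ER stress response elements in their promoters.

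Such elements were looked for in the 250 bases upstream of the transcription start in the RefSeq GRCm38.p6 annotation, on both strands. Of the 10 genes, 9 were in the promoter table, and HYOU1 was not. The element CCAAT, 9 bases, CCACG was present in 6 of the 9 promoters, against 37 of 32851 promoters of the genome (0.113%). HERPUD1 held the shorter element ATTGG, 1 base, CCACG, found in 10 of the 32851 (0.0304%). TGACGTGG, a binding site of XBP1 and ATF6, was in 0 of the 9 and in 185 of the 32851 (0.563%). P4HB and SEL1L had no match to any of the 3 motifs, which 229 promoters (0.697%) had. The sequences are given so that the elements can be read in place, with the element in capitals and the strand that of the gene. For HSPA5 the stretch is chr2:34772020-34772048, for HSP90B1 it is chr10:86705623-86705671 and chr10:86705518-86705566, for CALR chr8:84847060-84847108 and for PDIA6 chr12:17266476-17266524.
HSPA5: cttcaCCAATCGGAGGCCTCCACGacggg
HSP90B1: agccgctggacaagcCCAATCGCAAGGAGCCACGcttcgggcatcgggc
HSP90B1: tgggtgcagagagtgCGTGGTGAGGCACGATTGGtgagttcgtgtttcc
CALR: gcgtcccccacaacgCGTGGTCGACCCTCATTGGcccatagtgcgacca
PDIA6: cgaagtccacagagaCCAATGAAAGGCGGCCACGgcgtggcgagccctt
The HSPA5 element lay 65 to 47 bases before the RefSeq start, within a longer HSPA5 transcript of the GENCODE annotation. The 250 upstream bases are given in full for CANX (chr11:50325674-50325923), CRELD2 (chr15:88819396-88819645) and HERPUD1 (chr8:94386179-94386428), each called lower in Direct-78.
CANX: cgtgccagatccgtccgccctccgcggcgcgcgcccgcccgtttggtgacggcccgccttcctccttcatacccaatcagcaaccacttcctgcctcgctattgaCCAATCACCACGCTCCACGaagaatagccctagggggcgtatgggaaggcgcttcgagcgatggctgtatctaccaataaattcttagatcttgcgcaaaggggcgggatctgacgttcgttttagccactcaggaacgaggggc
CRELD2: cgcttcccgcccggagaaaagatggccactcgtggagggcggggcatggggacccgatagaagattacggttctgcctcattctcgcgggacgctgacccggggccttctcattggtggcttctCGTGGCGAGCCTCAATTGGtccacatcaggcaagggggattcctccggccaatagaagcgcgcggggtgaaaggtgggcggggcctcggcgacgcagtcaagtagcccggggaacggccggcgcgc
HERPUD1: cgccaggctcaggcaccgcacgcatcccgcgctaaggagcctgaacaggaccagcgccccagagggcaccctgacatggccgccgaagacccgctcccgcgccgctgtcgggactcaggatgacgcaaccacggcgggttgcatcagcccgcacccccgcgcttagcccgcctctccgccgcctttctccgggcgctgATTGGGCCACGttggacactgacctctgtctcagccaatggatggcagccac

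**Figure D1:**
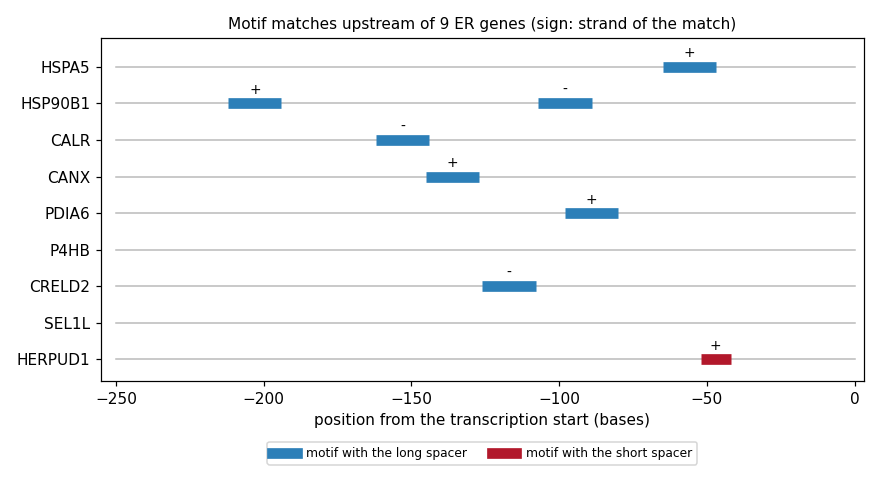
Positions of ER stress response elements in the 250 bases upstream of the transcription start of 9 genes; the horizontal axis is the distance from the start in bases and the sign gives the strand. Elements with the 9-base spacer sat in HSPA5, HSP90B1, CALR, CANX, PDIA6 and CRELD2, and the one with the 1-base spacer in HERPUD1.

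The tissue was labelled liver, and 6 of 12 hepatocyte markers were on the panel. Their summed level ran from 39598 to 63689.5 CPM (the count scaled to a common library total) in Control-78 and from 21392 to 35225 CPM in Direct-78, with no overlap. Pancreatic acinar genes, 17 of 29 on the panel, stood far above the rest in S1-78 mouse 36 (34723 CPM), S2-78 mouse 47 (16820.2 CPM), S1-10 mouse 17 (7263 CPM) and S1-32 mouse 19 (3834 CPM). In Direct-78 their sum was 116, 417 and 712 CPM against 10.8 to 76.6 CPM in Control-78. The most abundant of these genes in Direct-78 was ZG16 (mean 224 CPM), and CTRB1, CELA2A and SYCN had no counts there. In S1-78 it was CTRB1 (mean 925 CPM) and in S2-78 CEL (mean 1652 CPM). The libraries over 10 times the median pancreatic sum (11 libraries) were left out in one of the alternatives. Total counts of Direct-78 were 541245, 671116 and 699825, and those of Control-78 ran from 2098777 to 4285848. Genes with a count numbered 1750 to 2095 in Direct-78 and 2355 to 2535 in Control-78. Depth, hepatocyte markers and exposure cannot be told apart in that group, because every Direct-78 library lay outside the range of Control-78 in each. Lower sums in Direct-78 were also found for macrophage genes (111 to 299 CPM against 309 to 689.5 CPM) and for erythroid genes (16.2 to 70.2 CPM against 314 to 867 CPM). The erythroid sum rested mainly on ALAS2, the most abundant of its 3 genes in every group. ALAS2 had a mean of 50.5 CPM in Direct-78, where HBA-A1 and HBB-BS had no counts, and of 528.2 CPM in Control-78. Other groups also lay wholly outside their controls. Total counts were higher in S1-32 (2979117 to 3914572 against 721372 to 2731045), and lower in S3-57 (1123317 to 2030701 against 2223516 to 4153377) and S3-78 (1154431 to 1936370 against 2098777 to 4285848), so depth and exposure cannot be told apart in these either. Sums were higher in S1-32 for macrophage (713 to 1058 against 142 to 539.8 CPM) and endothelial genes (244 to 329.6 against 68.2 to 239 CPM), in S1-10 for hepatocyte (61904 to 76681 against 14960.2 to 60496 CPM) and erythroid genes (281 to 400.0 against 43.0 to 201 CPM), and in S2-32 (369 to 965 against 89.7 to 278 CPM) and S1-78 (154 to 1662 against 63.98 to 153 CPM) for stellate cell and fibroblast genes. The erythroid sum was lower in S3-78 (13.3 to 187 against 314 to 867 CPM). Whether any of these accounts for a difference in the 10 genes was not tested.

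Each exposed group was first compared with the controls of its week, which asks what DCA did by that week, and groups examined at 1 week share their controls. A gene was called when the p of edgeR's quasi-likelihood test, adjusted over the 2205 genes, was at most 0.05 and the fold change was beyond 1.5. At the end of 10 weeks of DCA, 0 of the 10 genes were called (5.49% of all genes were), although 9 of 10 lay above 0 and their median log2 fold change was 0.75 against -0.03 for all genes, which was from -0.16 to -0.11 with the other scalings. There 5 had an unadjusted p under 0.05, as did 464 of the 2205 genes, and DESeq2 called 1, P4HB, among 241 of all genes. In S1-32, 22 weeks after exposure, 3 of the 10 were called (29.1% of all genes), P4HB and SEL1L higher and CALR lower, in libraries that were all deeper than those of Control-32. S1-57 had 0 called (1.59% of all genes), 4 with an unadjusted p under 0.05 (293 of all genes) and 1 called by DESeq2 (106 of all genes), HSP90B1. S1-78 also had 0 called (1.81% of all genes), with 2 at an unadjusted p under 0.05 (299 of all genes) and 0 by DESeq2 (85 of all genes). After 32 weeks of DCA, S2-32 had 2 called (10.7% of all genes), P4HB higher and CALR lower. S2-78 had 2 called lower (1.63% of all genes), HSPA5 and HERPUD1. After 57 weeks of DCA, S3-57 had 1 called lower (6.39% of all genes), CANX. S3-78 had 2 called lower (13.3% of all genes), CANX and HERPUD1. Direct-78 had 7 called lower (24.4% of all genes), namely HSPA5, CANX, PDIA6, P4HB, CRELD2, SEL1L and HERPUD1, with HSP90B1, HYOU1 and CALR not called. The median of the 10 genes there was -1.83 against -0.33 for all genes, and 9 of 10 lay below 0, where CALR was the exception and HSP90B1 turned positive with RLE, upper-quartile and DESeq2 factors.

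**Figure D2:**
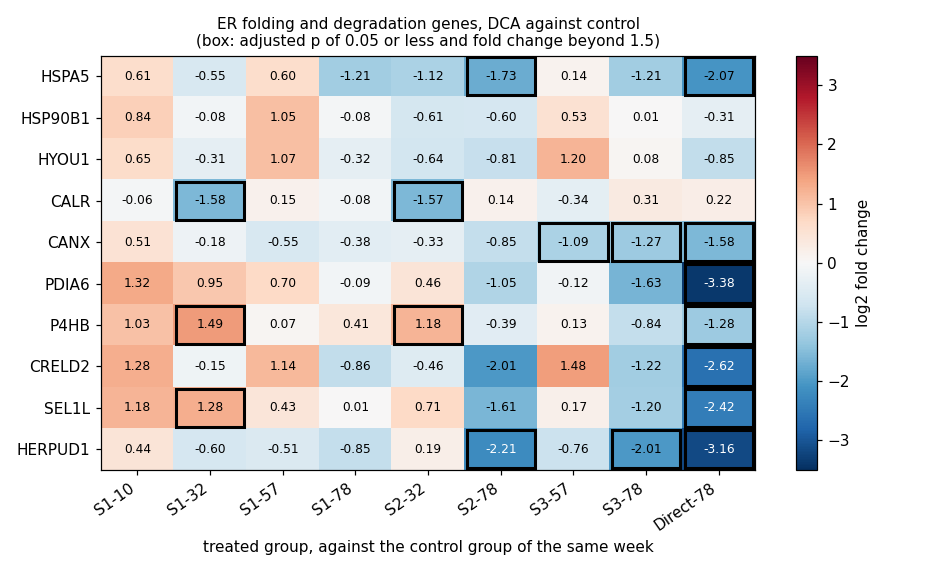
Log2 fold changes of the 10 genes (vertical axis) in each exposed group against the controls of the same week (horizontal axis), as colour and printed value, with a box around called values. PDIA6 (-3.38) and HERPUD1 (-3.16) had the lowest Direct-78 values.

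The median over all genes moved with the scaling, by over 0.1 on the log2 scale in several comparisons. For Direct-78 it was -0.33 with TMM factors and from 0.062 to 0.12 with the other scalings (RLE, upper-quartile and DESeq2). For S3-78 it was 0.067 with TMM factors and from 0.27 to 0.34 with the other scalings, and for S2-78 0.056 with TMM factors and from 0.24 to 0.27 with the other scalings. S1-32 gave 0.053 with TMM factors and from -0.24 to -0.071 with the other scalings, and S2-32 gave 0.045 with TMM factors and from -0.17 to -0.063 with the other scalings. The S1-10 median was -0.03 with TMM factors and from -0.16 to -0.11 with the other scalings, and the S1-57 median 0.068 with TMM factors and from 0.18 to 0.19 with the other scalings. None of the 29 called values of the 10 genes changed sign under any alternative, though 26 of the 29 lost their call under at least 1 of them or without 1 library.

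HSPA5 (BiP, chr2:34771970-34777547 in GRCm38) is the ER's Hsp70, which binds unfolded chains and holds the stress sensors inactive. Its level was 122 to 1084 CPM (median 564) in the 6 Control-78 mice, a wide spread, and 48.6, 157 and 193 CPM in the 3 Direct-78 mice. HSPA5 fell by 2.07 on the log2 scale in Direct-78 (SE 0.55, SE standing for standard error, and adjusted p = 0.00661), with 3 of 3 mice below the median of Control-78, and the groups overlapped. HSPA5 was not called with only the groups compared (-1.99), with log2 total count as a covariate (-1.97) or without Direct-78 mouse 66 (-1.64). It stood at -1.55 without the pancreas-gene libraries, which left 1 Direct-78 mouse. In S2-78, 46 weeks after exposure, it was 119.6, 131, 188 and 229.8 CPM in the 4 S2-78 mice (log2 fold change -1.73, SE 0.48, adjusted p = 0.0436), with 4 of 4 mice below the median of Control-78 and overlap with the controls. That call rested on single libraries: the log2 fold change was -1.63 without S2-78 mouse 43, -1.51 without S2-78 mouse 44, -1.78 without S2-78 mouse 45, -1.67 without Control-78 mouse 87, -1.77 without Control-78 mouse 88, -1.41 without Control-78 mouse 89 and -1.58 without Control-78 mouse 90, none of these called. It was also lost with RLE factors (-1.48), upper-quartile factors (-1.45), all 78 libraries (-1.98), thinning to the lowest total count (-1.61), the covariate (-1.69) and only the groups compared (-1.71). In S1-78 HSPA5 was not called (log2 fold change -1.21, SE 0.41, adjusted p = 0.105), nor in S3-78 (log2 fold change -1.21, SE 0.47, adjusted p = 0.0780), where it was called without Control-78 mouse 86 (-1.43) or with all 78 libraries (-1.75). In S2-32 it was 102 to 268 CPM (median 167) in the 6 S2-32 mice and 88.3 to 857 CPM (median 256) in the 6 Control-32 mice, which was not called (log2 fold change -1.12, SE 0.41, adjusted p = 0.0644). It was called there by DESeq2 (-1.20), with upper-quartile (-1.32) or RLE scaling (-1.20), and its log2 fold change was -1.35 without S2-32 mouse 37, -1.37 without S2-32 mouse 38, -1.33 without Control-32 mouse 73 and -1.27 without Control-32 mouse 74, each of them called. Group means of HSPA5 ran from 133 CPM in Direct-78 to 556 CPM in Control-78, and all 12 of 12 pairs of groups next to each other in that order overlapped. Such pairs are neighbours by mean. Overlap between them, here and for the other genes, does not bear on groups further apart.

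HSP90B1 (GRP94, chr10:86690209-86705509) is the ER's Hsp90, which finishes the folding of receptors and integrins. HSP90B1 was not called in any comparison by edgeR, whatever the alternative. Its level was 1326, 2349.6 and 2559.5 CPM in the 3 Direct-78 mice, overlapping with 1736 to 3179 CPM (median 2726) in the 6 Control-78 mice. In Direct-78 HSP90B1 had log2 fold change -0.31, SE 0.46, adjusted p = 0.642, and the fold change turned to 0.14 with RLE factors, 0.22 with upper-quartile factors, 0.14 with DESeq2 and 0.13 without Direct-78 mouse 65. In S1-57 HSP90B1 was 1144 to 8619 CPM (median 2286) in the 6 S1-57 mice, the highest value coming from mouse 28, and 1167 to 2067 CPM (median 1456) in the 6 Control-57 mice. That difference was not called by edgeR (log2 fold change 1.05, SE 0.38, adjusted p = 0.151) and was by DESeq2 (1.15), and without mouse 28 the edgeR value shrank to 0.45. Its group means ran from 1254 CPM in Control-10 to 3163 CPM in S1-57, with all 12 of 12 neighbouring pairs overlapping. HYOU1 (chr9:44379490-44392369), a large Hsp70 that exchanges the nucleotide of BiP, was not called in any comparison by the chosen edgeR fit, but was in Control-78 against Control-10 with the covariate (1.74) and for the change in Direct-78 with only the groups compared (-1.34) or all 78 libraries (-1.69). HYOU1 was 570.1, 1084 and 1096 CPM in the 3 Direct-78 mice and 962 to 2241 CPM (median 1749) in the 6 Control-78 mice, which overlapped (log2 fold change -0.85, SE 0.54, adjusted p = 0.238). In S3-57 it was 1044, 1234, 1379.7, 2132 and 3965 CPM in the 5 S3-57 mice and 510.0 to 1318 CPM (median 848) in the 6 Control-57 mice (log2 fold change 1.20, SE 0.45, adjusted p = 0.0993), with overlap, and only DESeq2 called it (1.26). In S1-57 mouse 28 again gave the highest HYOU1 value, 5790.1 CPM against a group median of 1100.5 CPM, and the gene was not called (log2 fold change 1.07, SE 0.43, adjusted p = 0.211), with 0.21 left without that mouse. HYOU1 means ran from 643 CPM in Control-10 to 1951 CPM in S3-57, and all 12 of 12 neighbouring pairs overlapped.

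CALR and CANX are lectins that bind glycoproteins while their sugars are trimmed, CALR soluble in the lumen and CANX anchored in the membrane. CANX (chr11:50293961-50325673) was 2952 to 4558 CPM (median 4130.4) in the 6 Control-78 mice. CANX was 1170.4, 1348 and 1476 CPM in the 3 Direct-78 mice, every value below every control value. It fell by 1.58 on the log2 scale (SE 0.29, adjusted p = 0.000119, 3 of 3 mice below the median of Control-78), a call lost only with log2 total count as a covariate (-0.94). In S3-78, 21 weeks after exposure, CANX was 1285, 1556, 1891 and 1909 CPM in the 4 S3-78 mice, also clear of the controls (log2 fold change -1.27, SE 0.25, adjusted p = 0.000585, 4 of 4 mice below the median of Control-78). No alternative and no library left out removed that call, though every S3-78 library was shallower than every Control-78 library. At week 57 CANX was 1102, 1459, 1553, 2084 and 2372 CPM in the 5 S3-57 mice and 2949 to 4569 CPM (median 3481) in the 6 Control-57 mice, without overlap (log2 fold change -1.09, SE 0.23, adjusted p = 0.00190, 5 of 5 mice below the median of Control-57). The S3-57 call was lost with all 78 libraries (-1.35). S2-78 values of CANX, 1847, 2227, 2248 and 2559.8 CPM in the 4 S2-78 mice, were also below all controls, but the test was not passed (log2 fold change -0.85, SE 0.25, adjusted p = 0.0560). It was passed by DESeq2 (-0.63) and without Control-78 mouse 85 (-0.90). In S1-57 the gene was not called (log2 fold change -0.55, SE 0.22, adjusted p = 0.183), with overlapping values. CANX means were lowest in Direct-78 (1331 CPM), then S3-78 and S3-57, and highest in Control-78 (3993 CPM), with all 12 of 12 neighbouring pairs overlapping.

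CALR (chr8:84841850-84846934) was 289.8 to 518 CPM (median 422) in the 6 S1-32 mice, 314 to 541 CPM (median 411) in the 6 S2-32 mice and 235 to 2341 CPM (median 1105) in the 6 Control-32 mice. It fell by 1.58 on the log2 scale in S1-32 (SE 0.45, adjusted p = 0.00792, 6 of 6 mice below the median of Control-32), a call lost with log2 total count as a covariate (-0.90). CALR fell by 1.57 in S2-32 (SE 0.45, adjusted p = 0.0180, 6 of 6 mice below the median of Control-32), where the call was lost with all 78 libraries (-1.61). The S2-32 log2 fold change was -1.39 without Control-32 mouse 75 and -1.45 without Control-32 mouse 78, neither of them called. Both comparisons of CALR share the Control-32 mice, whose values spanned those of the exposed mice, so the groups overlapped. CALR was 442, 740.1 and 909.9 CPM in the 3 Direct-78 mice, inside the range of the controls, 282 to 960.5 CPM (median 596) in the 6 Control-78 mice. CALR had log2 fold change 0.22, SE 0.54, adjusted p = 0.780 there, and the fold change turned to -1.59 with log2 total count as a covariate and to -0.45 without the pancreas-gene libraries. CALR means ran from 328 CPM in S1-10 to 1256 CPM in Control-32, with all 12 of 12 neighbouring pairs overlapping.

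**Figure D3:**
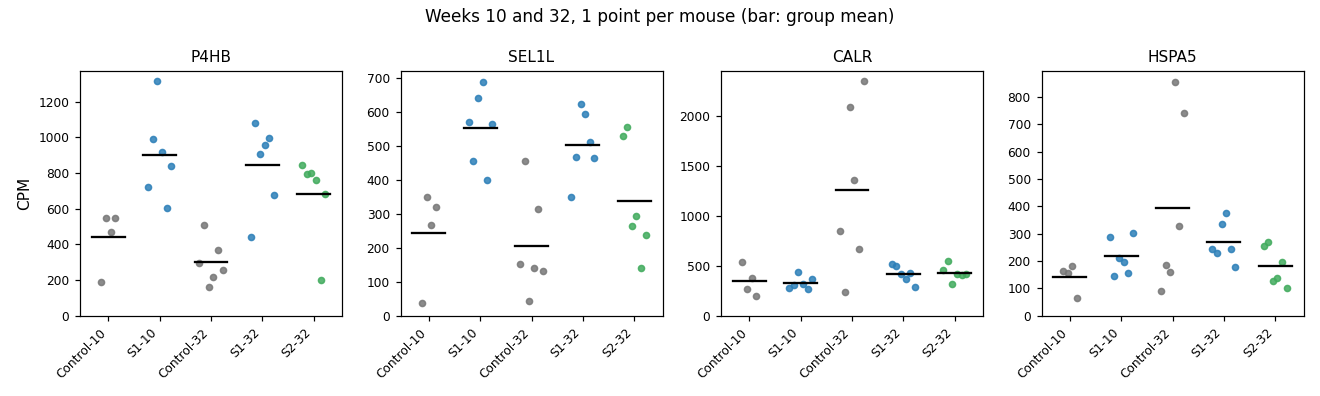
CPM (vertical axis) of single mice (points) and group means (bars) by group at weeks 10 and 32 for P4HB, SEL1L, CALR and HSPA5. CALR reached 2341 CPM in Control-32, and P4HB was above most Control-32 values in S1-32.

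PDIA6 and P4HB are protein disulfide isomerases, P4HB being also a subunit of the enzyme that hydroxylates collagen. PDIA6 (chr12:17266545-17284770) had few counts, between 34 and 260 per Control-78 library. In the Direct-78 mice it had 0, 0 and 10 counts. Its level was 28.3 to 79.1 CPM (median 40.98) in the 6 Control-78 mice and 0, 0 and 13.5 CPM in the 3 Direct-78 mice, without overlap. PDIA6 fell by 3.38 on the log2 scale (SE 0.84, adjusted p = 0.00376, 3 of 3 mice below the median of Control-78). At that depth the size of the fall is poorly fixed: thinning all libraries to 541245 counts gave -2.17, not called. The PDIA6 call was also lost with only the groups compared (-3.30), with log2 total count as a covariate (-2.15) and without Direct-78 mouse 64 (-2.58). Without Direct-78 mouse 66 the remaining mice had no PDIA6 counts, and no fold is given for them. PDIA6 was 5.29, 14.4, 16.8 and 22 CPM in the 4 S3-78 mice, clear of the controls, which edgeR did not call (log2 fold change -1.63, SE 0.63, adjusted p = 0.0736) and DESeq2 (-1.49) and a fit of only the groups compared (-1.65) did. In S1-10 PDIA6 was 30.9 to 85.3 CPM (median 55.9) in the 6 S1-10 mice and 4.71, 15.5, 27.95 and 42.6 CPM in the 4 Control-10 mice, overlapping and not called (log2 fold change 1.32, SE 0.62, adjusted p = 0.204). PDIA6 means ran from 4.50 CPM in Direct-78 to 57.2 CPM in S1-10, and all 12 of 12 neighbouring pairs overlapped.

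P4HB (chr11:120560298-120573253) was the gene called higher in both week 32 comparisons. It was 441 to 1084 CPM (median 933) in the 6 S1-32 mice, 202 to 845 CPM (median 776) in the 6 S2-32 mice and 160.2 to 508 CPM (median 275) in the 6 Control-32 mice. P4HB rose in S1-32 (log2 fold change 1.49, SE 0.35, adjusted p = 0.00185, 6 of 6 mice above the median of Control-32), though single values overlapped. That call was lost with log2 total count as a covariate (1.05) and with all 78 libraries (1.47). It rose in S2-32 as well (log2 fold change 1.18, SE 0.35, adjusted p = 0.0203, 5 of 6 mice above the median of Control-32), with overlap. The S2-32 value was 1.06 without Control-32 mouse 75 and 1.08 without Control-32 mouse 78, and neither was called. It was also not called with only the groups compared (1.11), the covariate (0.99), all 78 libraries (1.18) or without the pancreas-gene libraries (1.06). At week 10 every S1-10 mouse was above every control for P4HB, 601 to 1316 CPM (median 881) in the 6 S1-10 mice and 190.3, 469, 548 and 549 CPM in the 4 Control-10 mice. The test did not pass the adjusted threshold (log2 fold change 1.03, SE 0.39, adjusted p = 0.106), while DESeq2 gave 1.00 and a call. P4HB was 124, 226 and 236 CPM in the 3 Direct-78 mice, and 217 to 725 CPM (median 459) in the 6 Control-78 mice, with overlap (log2 fold change -1.28, SE 0.45, adjusted p = 0.0307, 3 of 3 mice below the median of Control-78). That P4HB call was lost without any 1 of 5 libraries, with log2 fold changes of -1.26 without Direct-78 mouse 64, -0.84 without Direct-78 mouse 65, -1.40 without Direct-78 mouse 66, -0.95 without Control-78 mouse 85 and -1.21 without Control-78 mouse 90. It was also lost with RLE factors (-0.84), upper-quartile factors (-0.75), DESeq2 (-0.84), the covariate (-0.16), thinning (-0.87) and only the groups compared (-1.21). Without the pancreas-gene libraries, which left 1 Direct-78 mouse, the log2 fold change was -1.95. P4HB means ran from 195 CPM in Direct-78 to 899.5 CPM in S1-10, all 12 of 12 neighbouring pairs overlapping.

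CRELD2 (chr15:88819646-88826683) is an ER protein with disulfide isomerase activity that is secreted under stress. In Direct-78 it had 0, 13 and 44 counts, and its level was 0, 12.8 and 59.4 CPM in the 3 Direct-78 mice and 30.8 to 251 CPM (median 152) in the 6 Control-78 mice. CRELD2 fell by 2.62 on the log2 scale (SE 0.75, adjusted p = 0.00966, 3 of 3 mice below the median of Control-78), while the lowest control overlapped with the highest exposed mouse. The call was lost without Direct-78 mouse 64 (-2.13) or 65 (-1.85), and the value was -4.39 without mouse 66. It was also lost with only the groups compared (-2.54), the covariate (-2.01) and thinning (-2.34). In S2-78 CRELD2 was 18.4, 24.95, 48.1 and 53.5 CPM in the 4 S2-78 mice, which overlapped with the controls and was not called by edgeR (log2 fold change -2.01, SE 0.63, adjusted p = 0.0756) but was by DESeq2 (-1.81) and with all 78 libraries (-2.41). In S3-57 it was 20.2, 43.2, 62.4, 97.1 and 241 CPM in the 5 S3-57 mice and 21.9 to 51.4 CPM (median 28.8) in the 6 Control-57 mice, overlapping and not called by edgeR (log2 fold change 1.48, SE 0.55, adjusted p = 0.0983). DESeq2 called it there (1.5), as did edgeR without S3-57 mouse 54 (1.70) or without the pancreas-gene libraries (1.97). CRELD2 means ran from 24.1 CPM in Direct-78 to 147 CPM in Control-78, with all 12 of 12 neighbouring pairs overlapping.

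SEL1L (chr12:91806043-91849157) holds together the HRD1 ubiquitin ligase, through which unfolded chains leave the ER. At week 10 SEL1L was 399 to 688 CPM (median 567) in the 6 S1-10 mice and 37.1 to 350 CPM (median 293) in the 4 Control-10 mice. The groups did not overlap, and the gene was not called (log2 fold change 1.18, SE 0.53, adjusted p = 0.186). At week 32 SEL1L was 349 to 621 CPM (median 489) in the 6 S1-32 mice and 41.9 to 455 CPM (median 146) in the 6 Control-32 mice, overlapping. SEL1L rose in S1-32 (log2 fold change 1.28, SE 0.47, adjusted p = 0.0342, 6 of 6 mice above the median of Control-32). It was not called without 1 of 6 libraries, with log2 fold changes of 1.18 without S1-32 mouse 21, 1.23 without S1-32 mouse 22, 1.21 without Control-32 mouse 73, 1.05 without Control-32 mouse 75, 1.17 without Control-32 mouse 76 and 1.13 without Control-32 mouse 78. The covariate (0.51), all 78 libraries (1.26) and leaving out the pancreas-gene libraries (1.16) also removed the call. SEL1L was 55.3, 64.1 and 137 CPM in the 3 Direct-78 mice and 98.3 to 701 CPM (median 485) in the 6 Control-78 mice. It fell by 2.42 on the log2 scale (SE 0.64, adjusted p = 0.00604, 3 of 3 mice below the median of Control-78), with overlap at the lowest control. Of the alternatives, the covariate (-0.17) removed that SEL1L call. Without the pancreas-gene libraries, which left 1 Direct-78 mouse, SEL1L stood at -1.75. S3-78 was not called for SEL1L (log2 fold change -1.20, SE 0.53, adjusted p = 0.122), and that value turned to 0.0053 with the covariate. Means of SEL1L ran from 85.7 CPM in Direct-78 to 553 CPM in S1-10, and all 12 of 12 neighbouring pairs overlapped.

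HERPUD1 (chr8:94386438-94395377) is a membrane protein that recruits substrates to the same ligase and is short-lived. It was called lower in 3 of the 4 week 78 groups, which share their controls. The controls had 869.7 to 4197 CPM (median 2991) in the 6 Control-78 mice. HERPUD1 was 153, 203 and 547 CPM in the 3 Direct-78 mice, without overlap (log2 fold change -3.16, SE 0.60, adjusted p = 0.000236, 3 of 3 mice below the median of Control-78). That HERPUD1 call was lost with the covariate (-2.74). HERPUD1 stood at -2.31 without the pancreas-gene libraries, which left 1 Direct-78 mouse. It was 313, 766, 772 and 815 CPM in the 4 S3-78 mice, also without overlap (log2 fold change -2.01, SE 0.50, adjusted p = 0.00493, 4 of 4 mice below the median of Control-78). No alternative and no library left out removed the S3-78 call of HERPUD1, but total counts and erythroid sums of S3-78 lay wholly below those of Control-78. Levels were 355, 419, 630.4 and 923 CPM in the 4 S2-78 mice, where the highest overlapped with the lowest control (log2 fold change -2.21, SE 0.50, adjusted p = 0.00959, 4 of 4 mice below the median of Control-78). That call was lost with only the groups compared (-2.20). In S1-78, 68 weeks after exposure, HERPUD1 was 471 to 2567 CPM (median 1497) in the 6 S1-78 mice, which was not called (log2 fold change -0.85, SE 0.42, adjusted p = 0.355). Its means ran from 301 CPM in Direct-78 to 2693 CPM in Control-78, and all 12 of 12 neighbouring pairs overlapped.

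**Figure D4:**
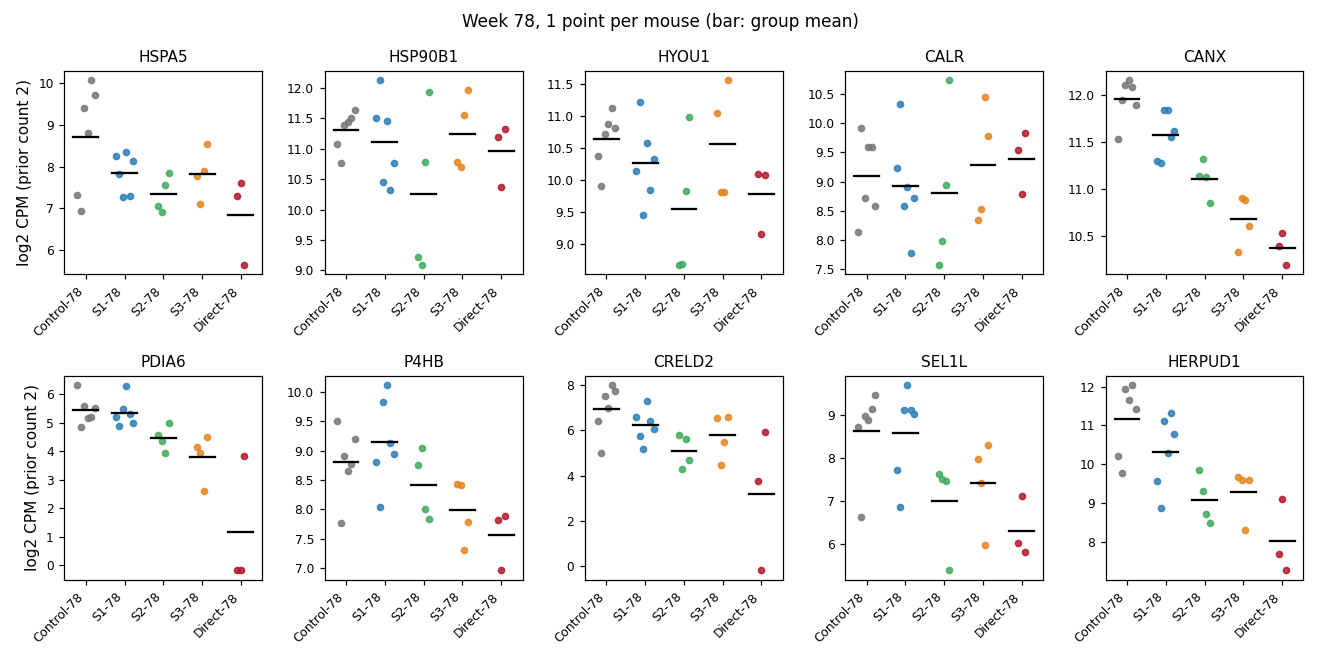
Log2 CPM (prior count 2, vertical axis) of single mice (points) and group means (bars) in the week 78 groups, with 1 panel for each of the 10 genes. CANX, PDIA6 and HERPUD1 in Direct-78 lay below every Control-78 mouse.

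The control mice themselves were compared by age, since every exposed group was set against them, and these comparisons share the Control-10 mice. Library and tissue measures moved with age as well. Control-78 lay wholly outside Control-10 in genes with a count (2355 to 2535 against 2094 to 2330) and in the sums of erythroid (314 to 867 against 43.0 to 201 CPM), plasma and B cell (1771 to 4207 against 671 to 1709 CPM), stellate cell and fibroblast (63.98 to 153 against 196 to 450.0 CPM) and endothelial genes (89.1 to 119 against 141 to 241 CPM). Control-57 did so in total counts (2223516 to 4153377 against 1233543 to 2206672), genes with a count (2441 to 2623 against 2094 to 2330) and the erythroid (241 to 744 against 43.0 to 201 CPM) and endothelial sums (88.8 to 135 against 141 to 241 CPM). The plasma and B cell sum was mostly SDC1 (mean 2949.5 CPM in Control-78 and 1140.8 CPM in Control-10), and MS4A1 had no counts in Control-10. That sum is therefore the level of SDC1 rather than a measure of these cells. ALAS2 made up most of the erythroid sum. Whether these library and tissue measures account for the calls with age was not tested. Control-32 had 1 of the 10 genes called (1.59% of all genes), CALR, Control-57 had 0 (3.45% of all genes) and Control-78 had 3 (3.95% of all genes), HSPA5, CANX and HERPUD1. In Control-57 there were 2 genes with an unadjusted p under 0.05 (359 of all genes) and 1 called by DESeq2 (137 of all genes), CANX (0.69). All 10 genes lay above 0 in Control-78, except that P4HB turned negative with upper-quartile factors, thinning or the covariate, and their median was 1.01 against -0.057 for all genes. The all-gene median there was -0.057 with TMM factors and from -0.23 to -0.20 with the other scalings. HERPUD1 was 257, 551, 630.2 and 659 CPM in the 4 Control-10 mice, all below the Control-78 values (log2 fold change 2.36, SE 0.51, adjusted p = 0.00407, 6 of 6 mice above the median of Control-10), and no alternative removed that call. CANX was 1076, 2232, 2535 and 2785 CPM in the 4 Control-10 mice, also below all Control-78 values (log2 fold change 0.89, SE 0.25, adjusted p = 0.0287, 6 of 6 mice above the median of Control-10). The CANX call was lost without Control-10 mouse 68 or 72, with log2 fold changes of 0.71 without Control-10 mouse 68 and 0.91 without Control-10 mouse 72. It was also lost with only the groups compared (0.88), the covariate (0.67), all 78 libraries (1.00), all genes with a count (0.89) and thinning (0.71). HSPA5 was 65.8, 157, 163 and 182 CPM in the 4 Control-10 mice, which overlapped with Control-78 (log2 fold change 1.97, SE 0.49, adjusted p = 0.0134, 4 of 6 mice above the median of Control-10), and it was not called without Control-10 mouse 72 (1.73) or with only the groups compared (1.94). CRELD2 was not called (log2 fold change 1.93, SE 0.63, adjusted p = 0.0633), but was without Control-78 mouse 85 (2.05) or 86 (2.14), by DESeq2 (1.83) and without the pancreas-gene libraries (1.95). HYOU1 was called in Control-78 only with the covariate (1.74). CALR rose in Control-32 (log2 fold change 1.87, SE 0.53, adjusted p = 0.0499, 5 of 6 mice above the median of Control-10) with overlap, at the edge of the threshold. The CALR log2 fold change was 1.77 without Control-10 mouse 69, 1.92 without Control-10 mouse 71, 1.68 without Control-10 mouse 72, 1.66 without Control-32 mouse 75, 1.89 without Control-32 mouse 76 and 1.69 without Control-32 mouse 78, none of them called. The CALR call was also lost with all genes with a count (1.79), only the groups compared (2.00), all 78 libraries (2.05), thinning (1.79) and without the pancreas-gene libraries (1.68). In Control-32, HSPA5 was called without Control-32 mouse 73 (1.68) or 74 (1.62), and CANX without mouse 74 (0.81). DESeq2 called both there, HSPA5 at 1.5 and CANX at 0.84, and CANX was also called with upper-quartile (0.90) and RLE scaling (0.84) and the covariate (0.78).

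**Figure D5:**
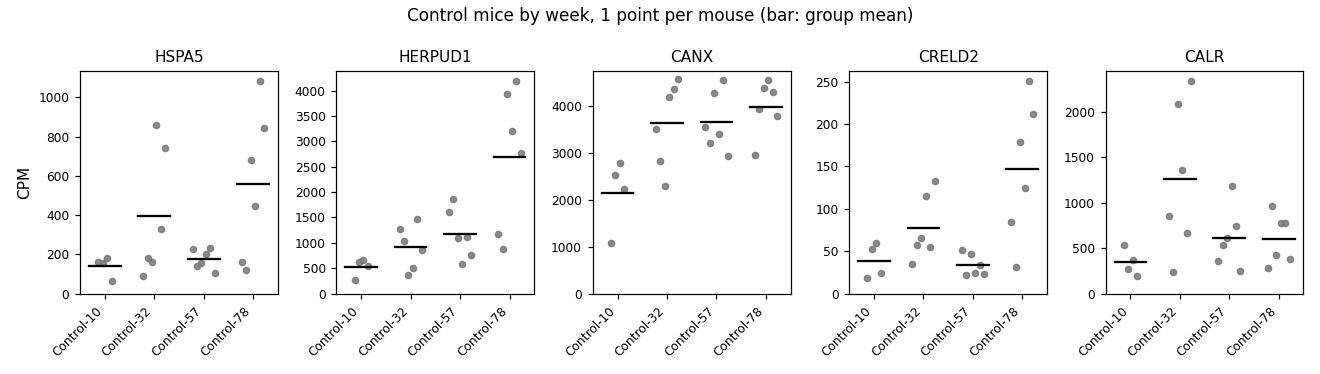
CPM (vertical axis) of single control mice (points) and group means (bars) by week for HSPA5, HERPUD1, CANX, CRELD2 and CALR. HERPUD1 and CANX were higher in every Control-78 mouse than in any Control-10 mouse.

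Mice still on DCA were compared with mice of the same week whose exposure had ended. The pairs also differed in weeks of DCA, 32 against 10 in S2-32 and S1-32, 57 against 10 in S3-57 and S1-57 and 78 against 57 in Direct-78 and S3-78. Stopping and the length of exposure therefore cannot be told apart. S2-32 against S1-32, where endothelial (122 to 197 against 244 to 329.6 CPM) and T and natural killer cell sums did not overlap, had 0 of the 10 genes called by edgeR (3.54% of all genes), 0 at an unadjusted p under 0.05 (391 of all genes) and 0 by DESeq2 (147 of all genes). For S3-57 against S1-57 there were 0 (0.00% of all genes), 1 at an unadjusted p under 0.05 (111 of all genes), CANX (log2 fold change -0.54, SE 0.23, adjusted p = 0.788), and 0 by DESeq2 (7 of all genes). Direct-78 against S3-78 gave 0 (5.03% of all genes), 2 at an unadjusted p under 0.05 (469 of all genes), PDIA6 and HERPUD1, and 0 by DESeq2 (174 of all genes). All 10 genes lay below 0 in that last comparison, with a median of -0.89 against -0.27 for all genes, though CALR turned positive with RLE, upper-quartile and DESeq2 factors. The all-gene median there was -0.27 with TMM factors and from -0.084 to -0.077 with the other scalings. Direct-78 lay wholly below S3-78 in total counts (541245 to 699825 against 1154431 to 1936370), genes with a count (1750 to 2095 against 2215 to 2486) and the T and natural killer cell sum (0 to 25.6 against 34.2 to 134 CPM), so depth and the length of exposure cannot be told apart here. PTPRC was the most abundant of the 4 genes of that sum in every group. In Direct-78 it was the only one with counts (mean 10.5 CPM), against a mean of 55.7 CPM in S3-78. PDIA6 (log2 fold change -1.75, SE 0.84, adjusted p = 0.213) and CRELD2 were called there without Direct-78 mouse 66, CRELD2 at -3.15 and PDIA6 with no counts left in Direct-78. HERPUD1 had log2 fold change -1.15, SE 0.57, adjusted p = 0.226, and the groups overlapped. Thus CANX and HERPUD1, called lower in both S3-78 and Direct-78 against their shared controls, were not shown to differ between these groups.

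The change after longer exposure was tested against the change after 10 weeks, each relative to its own controls, with an adjusted p of at most 0.05 as the threshold. For S2-32, 0 of the 10 genes were called by edgeR (1.86% of all genes), 5 had an unadjusted p under 0.05 (332 of all genes), and DESeq2 called 1 (119 of all genes), CANX (-0.88). For S3-57, 1 was called (6.21% of all genes), CANX, with a difference of -1.60 ± 0.34 (standard error), adjusted p = 0.00240, lost with all 78 libraries (-1.95). For Direct-78, 7 were called (33.8% of all genes), all lower, and the median of the 10 was -2.50 against -0.35 for all genes. The all-gene median there was -0.35 with TMM factors and from 0.14 to 0.26 with the other scalings. The HERPUD1 difference was -3.61 ± 0.75 (standard error), adjusted p = 0.000344. The SEL1L difference was -3.60 ± 0.83 (standard error), adjusted p = 0.00109. CANX differed by -2.09 ± 0.37 (standard error), adjusted p = 6.13e-05, and HSPA5 by -2.67 ± 0.72 (standard error), adjusted p = 0.00363. For P4HB every S1-10 mouse was above every Control-10 mouse, and every Direct-78 mouse was below the median of Control-78, with overlap. P4HB differed by -2.32 ± 0.59 (standard error), adjusted p = 0.00261. CRELD2 differed by -3.89 ± 0.96 (standard error), adjusted p = 0.00194, and PDIA6 by -4.70 ± 1.04 (standard error), adjusted p = 0.000676, both from few counts. Without Direct-78 mouse 66 the remaining Direct-78 mice had no PDIA6 counts, and the call was kept. Thinning removed the call of PDIA6 (-3.78). Without the pancreas-gene libraries, which left 1 Direct-78 mouse, HSPA5 stood at -2.24, SEL1L at -3.03 and HERPUD1 at -2.79. HYOU1 was called in a fit of only the groups compared (-1.34) and with all 78 libraries (-1.69). With log2 total count as a covariate, 0 of the 7 were called, and depth and exposure cannot be told apart here. Each of these values holds the age of the mice as well, since Control-78 and Control-10 differ by 68 weeks.

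Related genes on the panel were counted beside the 10, against the share of all genes called in the same comparison: 6 other ER folding factors, 2 other degradation factors, 7 ER stress sensors and transcription factors, 8 targets of the ATF4 branch, 6 translocon, signal peptidase and glycosylation genes and 16 heat shock genes of the cytosol and mitochondria. In Direct-78, where 24.4% of all genes were called, the folding factors had 2 of 6 called lower, PDIA5 and PPIB, a share near that of all genes, with a median of -1.36 against -0.33. PDIA5 was 158 ± 42.4 CPM (SD, n = 3) in Direct-78 and 582 ± 173 CPM (SD, n = 6) in Control-78 (log2 fold change -1.88), and PPIB 1461 ± 439 CPM (SD, n = 3) in Direct-78 and 3958 ± 1132 CPM (SD, n = 6) in Control-78 (-1.44), the latter not called without Direct-78 mouse 64 (-1.30) or 66 (-1.24). Both degradation factors were called lower there, EDEM1 (-4.35) and UBE2J1 (-0.75). EDEM1 was 0, 0 and 60.6 CPM in the 3 Direct-78 mice and was not called without Direct-78 mouse 64 (-3.64), 66 (-3.72) or Control-78 mouse 90 (-3.86), and the total-count covariate turned it to 0.072. The UBE2J1 call was lost without Direct-78 mouse 64 (-0.62), 66 (-0.49), Control-78 mouse 85 (-0.72), 88 (-0.70), 89 (-0.64) or 90 (-0.75). In S1-32 EDEM1 was called in the other direction (2.68), at 1208 ± 257 CPM (SD, n = 6) in S1-32 and 187 ± 311 CPM (SD, n = 6) in Control-32. Control-32 mouse 74 held 807 CPM of it, and without that mouse the value was 4.26. The covariate gave 1.07, not called, and the call was also lost without S1-32 mouse 20 (2.57), 22 (2.66), Control-32 mouse 73 (2.60), 75 (2.44), 76 (2.43), 77 (2.63) or 78 (2.42). Of the stress sensors and transcription factors Direct-78 had 3 of 7 called lower, ATF6 (-2.60), CREB3L3 (-1.47) and ATF4 (-1.45). ATF6 was 12.99 ± 5.38 CPM (SD, n = 3) in Direct-78 and 79.4 ± 33.1 CPM (SD, n = 6) in Control-78. CREB3L3 was not called without Direct-78 mouse 64 (-1.19), 66 (-1.09) or Control-78 mouse 85 (-1.21) and stood at -2.06 without Direct-78 mouse 65, and ATF4 was not called without Direct-78 mouse 64 (-1.46), 66 (-0.97) or Control-78 mouse 90 (-1.23). Of the 16 heat shock genes, Direct-78 had 8 called lower and 1 higher, against the 24.4% of all genes, and DNAJB1 (-3.58), HSP90AA1 (-1.96) and HSPA4 (-1.29) were among the lower ones. DNAJB1 moved to -2.49 without Control-78 mouse 90 and -4.54 without Direct-78 mouse 64, called both times, and was not called with only the groups compared (-3.49). It stood at -4.71 without the pancreas-gene libraries, which left 1 Direct-78 mouse. The other 6 were less steady. DNAJB6 (-1.22) was not called without Direct-78 mouse 64 (-0.75), HSPH1 (-2.19) not without Direct-78 mouse 64 (-1.78), BAG3 (-1.63) not without Direct-78 mouse 64 (-1.21) or 66 (-1.55), HSPA1B (-2.92) not without Direct-78 mouse 64 (-2.89), 65 (-2.66), 66 (-2.82) or Control-78 mouse 87 (-2.38), CRYAB, which had no counts in Direct-78, not without Direct-78 mouse 64, and HSPD1 (1.56), the higher one, not without Direct-78 mouse 64 (1.53), 66 (1.42), Control-78 mouse 85 (1.53), 89 (1.52) or 90 (1.44), turning to -0.84 with the covariate. Of the translocon genes SPCS3 was called lower (-1.27), but not without Direct-78 mouse 64 (-1.03). Of the 8 targets of the ATF4 branch, TRIB3 was called higher (2.13) and CHAC1 lower, 2 of 8 being near the share of all genes. TRIB3 was not called without Direct-78 mouse 64 (2.33), 66 (1.80), Control-78 mouse 85 (2.28), 87 (1.97), 89 (2.19) or 90 (1.96). CHAC1 had 0 counts in Direct-78, at least 7.70-fold lower than in Control-78 with 3 counts over the group as the floor, and the call was lost without Direct-78 mouse 64, 65 or 66, which leaves no counts to give a fold. Of the 19 values of the 6 lists called in Direct-78, 18 were lost with the covariate, DNAJB1 being kept (-4.38), and 14 without 1 library. With the covariate ATF6 stood at -1.03, CREB3L3 at -0.20 and TRIB3 at 0.49. Of the genes named, PDIA5 and HSP90AA1 kept the call in every other setting. ATF6 and HSPA4 lost it without the pancreas-gene libraries, which left 1 Direct-78 mouse, and the others, DNAJB1 aside, lost it both there and after thinning. EDEM1, UBE2J1, CREB3L3, ATF4, HSPA1B, DNAJB6, HSPH1, HSPD1 and BAG3 also lost it with only the groups compared, UBE2J1, ATF4, SPCS3 and BAG3 with RLE factors, these, PPIB and HSPA1B with upper-quartile factors, UBE2J1 with DESeq2, and TRIB3, CHAC1, DNAJB6 and CRYAB with all 78 libraries. Thinned, HSPA1B stood at -2.30 and DNAJB6 at -0.51. Without the pancreas-gene libraries EDEM1 stood at -2.75, ATF4 at -0.77, CREB3L3 at -0.60, BAG3 at -1.03 and HSPD1 at 0.86, and with all 78 libraries ATF4 stood at -2.08, CREB3L3 at -2.24, HSPA1B at -2.16 and HSPA4 at -1.90, called.

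In S3-78, where 13.3% of all genes were called, 3 of 16 heat shock genes were called lower, HSP90AA1 (-2.05), HSPA4 (-1.18) and DNAJB1 (-2.76), the last not without Control-78 mouse 90 (-1.67). UBE2J1 (-1.01) and SPCS3 (-1.21) were called lower there but not without S3-78 mouse 55, at -0.71 and -0.91, and ATF6 (-1.80) not without S3-78 mouse 55 (-1.48) or 59 (-1.68). TRIB3 was called higher (2.82), but not with the covariate (2.02). Of the folding factors ERO1L was called lower (-2.81), though not without S3-78 mouse 55 (-2.40), 59 (-2.42), Control-78 mouse 89 (-2.62) or 90 (-2.71), and NUCB2 higher (2.43), though not without S3-78 mouse 59 (-0.11), Control-78 mouse 85 (2.37), 86 (2.42), 87 (2.31) or 90 (2.25). ERO1L stood at -3.76 without S3-78 mouse 56, called. The covariate also ended the calls of ERO1L (-1.84), NUCB2 (0.95) and ATF6 (-0.96), only the groups compared those of DNAJB1, UBE2J1, SPCS3, ERO1L and NUCB2, thinning these and ATF6, and testing all genes or all 78 libraries that of NUCB2. In S2-78 (1.63% of all genes) 3 of 16 heat shock genes were called lower, DNAJB1 (-3.95, and -2.87 without Control-78 mouse 90), HSPB1 (-2.31), not called without S2-78 mouse 44 (-1.92), and BAG3 (-1.80), not called without S2-78 mouse 43 (-1.63), 47 (-1.61) or Control-78 mouse 90 (-1.56). UBE2J1 was called lower there (-0.89), but not without S2-78 mouse 43 (-0.80), 44 (-0.86), 47 (-0.82), Control-78 mouse 86 (-0.88), 87 (-0.89), 88 (-0.86), 89 (-0.80) or 90 (-0.89). CHAC1 also had 0 counts in S2-78 and was called lower, at least 23.6-fold on the same floor, a call lost without S2-78 mouse 43, 44 or 45, again with no fold to give. None of these 5 was called with only the groups compared or after thinning, where DNAJB1 stood at -3.24. The covariate ended the calls of BAG3, UBE2J1 and CHAC1 and moved HSPB1 to -3.29, all 78 libraries ended those of BAG3 and UBE2J1, leaving out the pancreas-gene libraries that of BAG3, and RLE or upper-quartile factors, all genes or DESeq2 that of UBE2J1. S1-78 (1.81% of all genes) had 3 of 16 heat shock genes called lower, HSPA4 (-0.87), DNAJB1 (-2.74) and HSPB1 (-1.65), where DNAJB1 was not called without Control-78 mouse 90 (-1.65) and HSPB1 not without S1-78 mouse 31 (-1.65), 33 (-1.44), 34 (-1.47), 35 (-1.47), Control-78 mouse 87 (-1.40), 89 (-1.70) or 90 (-1.56). None of the 3 was called with only the groups compared or after thinning, nor HSPA4 and HSPB1 with all 78 libraries, nor HSPB1 with RLE or upper-quartile factors. In S3-57 (6.39% of all genes) PPIB (-1.25) and UBE2J1 (-0.87) were called lower, neither with all 78 libraries and UBE2J1 not with only the groups compared or after thinning, and in S1-57 (1.59% of all genes) no gene of the lists was.

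At the end of 10 weeks, S1-10 (5.49% of all genes) had 3 of 8 ATF4 targets called lower, CEBPB (-2.01), ATF3 (-3.03) and TRIB3 (-2.36), and ERO1LB, a folding factor, called higher (2.34). CEBPB was not called without Control-10 mouse 68 (-1.33), ERO1LB not without Control-10 mouse 68 (1.94), ATF3 not without S1-10 mouse 14 (-2.84), 15 (-2.90), 16 (-2.93), 17 (-3.14), 18 (-2.97), Control-10 mouse 68 (-3.06) or 71 (-2.32), and TRIB3 not without S1-10 mouse 13 (-2.31), 14 (-2.18), 15 (-2.52), 16 (-2.33), 17 (-2.58), 18 (-2.29) or Control-10 mouse 68 (-1.09). The covariate and thinning ended the calls of ATF3 (-4.00 when thinned) and TRIB3, testing all genes that of TRIB3, and only the groups compared or all 78 libraries that of ERO1LB (1.25 with all 78), which stood at 2.99 when thinned. In S1-32, where 29.1% of all genes were called, 3 of 16 heat shock genes were called lower, a smaller share than of all genes, HSPD1 (-2.73), HSPA1L (-4.28) and HSPA8 (-3.18). HSPD1 was called under every alternative, at -1.78 with the covariate and -3.71 after thinning. There 4 of 8 ATF4 targets were called lower, CEBPB (-1.85), DDIT3 (-1.36), TRIB3 (-1.86) and ATF3 (-2.18), of which DDIT3 was not called without S1-32 mouse 19 (-1.34), 22 (-1.32), 24 (-1.30), Control-32 mouse 75 (-1.33), 76 (-1.41) or 78 (-1.42), TRIB3 not without S1-32 mouse 20 (-1.87), 21 (-1.90), 22 (-1.78), 23 (-1.81), Control-32 mouse 73 (-1.80), 75 (-1.87), 77 (-1.68) or 78 (-1.93), and ATF3 not without S1-32 mouse 19 (-2.22), 20 (-2.30), 21 (-2.25), 22 (-2.28), 23 (-2.18), 24 (-2.10), Control-32 mouse 74 (-2.03), 75 (-2.03), 76 (-2.32) or 78 (-2.20). Also called lower were ATF6B of the stress sensors (-2.33), not called without Control-32 mouse 75 (-1.09), and 3 of 6 translocon genes, SRP14 (-1.21), SRP72 (-0.74) and SPCS3 (-0.65). SRP72 was not called without S1-32 mouse 22 (-0.72), 23 (-0.74), 24 (-0.70), Control-32 mouse 76 (-0.64) or 78 (-0.66), nor SPCS3 without S1-32 mouse 21 (-0.70), 22 (-0.66), 23 (-0.72), 24 (-0.57), Control-32 mouse 73 (-0.66), 75 (-0.74), 76 (-0.65) or 78 (-0.56). Of the 12 called values of the 6 lists in S1-32, 11 were lost with the covariate, where HSPA1L stood at -2.61, CEBPB at -1.06, DDIT3 at -0.76 and TRIB3 at -1.27. Thinning ended the calls of HSPA8 (-2.52), ATF6B (-1.10), ATF3 (-1.10), DDIT3, TRIB3, SRP72 and SPCS3 and left HSPA1L at -3.64, called. Only the groups compared ended those of SRP72 and SPCS3, testing all genes these and ATF3, all 78 libraries these 3, EDEM1, DDIT3 and TRIB3, and leaving out the pancreas-gene libraries those of EDEM1, ATF6B (-1.08), DDIT3, ATF3 and SPCS3. In S2-32 (10.7% of all genes) HSPB1 (-2.24), HSPD1 (-1.5) and SRP14 (-1.26) were called lower, HSPD1 not without S2-32 mouse 39 (-1.5), 40 (-1.47), 42 (-1.49) or Control-32 mouse 75 (-1.19) and SRP14 not without Control-32 mouse 78 (-1.15). All 78 libraries ended both calls, and only the groups compared or leaving out the pancreas-gene libraries that of HSPD1. With age in controls, PPIB was called higher in Control-32 (1.29), Control-57 (1.30) and Control-78 (1.39), and SPCS3 in the same 3 groups (1.45, 1.09 and 1.52). In Control-32 PPIB was not called without Control-10 mouse 69 (1.21), 71 (1.30), 72 (1.16), Control-32 mouse 75 (1.32), 76 (1.19), 77 (1.21) or 78 (1.16). In Control-57 it was not without Control-10 mouse 69 (1.22), 71 (1.31), 72 (1.17), Control-57 mouse 82 (1.18) or 83 (1.15), nor SPCS3 without Control-10 mouse 69 (1.09), 71 (1.13), 72 (1.07), Control-57 mouse 81 (1.01), 82 (1.04) or 83 (0.93). Only the groups compared and thinning ended all of these calls but that of SPCS3 in Control-78, all 78 libraries ended every one, testing all genes that of PPIB in Control-32, RLE factors both in Control-57, and upper-quartile factors these and PPIB in Control-78. In Control-57 HSPH1 (-1.91) and HSPA1B (-2.88) were called lower and TRAP1 higher (1.01), where HSPH1 was not called without Control-10 mouse 71 (-1.68), HSPA1B not without Control-10 mouse 71 (-2.20), and TRAP1 not without Control-10 mouse 69 (0.97), 71 (0.95), 72 (0.94) or Control-57 mouse 83 (0.90). TRAP1 was also called higher in Control-78 (0.94), but not without Control-10 mouse 69 (0.90), 71 (0.89), 72 (0.87), Control-78 mouse 86 (0.90), 87 (0.94), 88 (0.89) or 89 (0.91). TRAP1 kept neither call with upper-quartile factors, only the groups compared, all 78 libraries or thinning, nor that of Control-78 with RLE factors or the covariate, and HSPH1 was not called with only the groups compared or all 78 libraries. All 6 values of the lists called in Control-57 were lost without 1 library. FGF21 was called lower in Control-32, Control-57 and Control-78 against the same Control-10 mice, whose values were 6.31, 15.1, 17.2 and 1043 CPM. Without the highest, Control-10 mouse 68, FGF21 turned to 0.73, 0.34 and 0.069 and was called in none of the 3. It was called in none with only the groups compared, not in Control-32 with all genes, all 78 libraries or thinning, and not in Control-78 with the covariate. In Control-32 the call was lost without Control-10 mouse 68 (0.73), Control-32 mouse 73 (-3.55), 75 (-4.18), 76 (-3.58), 77 (-3.67) or 78 (-3.87). Over all 18 comparisons, 4 of 95 called values of the 6 lists kept their call throughout, HSPD1 in S1-32, HSPB1 in S2-32, and HSPA4 and HSP90AA1 in S3-78. Floors and standard errors of this kind cover counting error and spread between mice only.

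Within groups the genes were also ranked by how closely they followed the mean of the 10, over 68 libraries and 2195 other genes, as a description without a test. NFIL3 (Pearson r 0.68), FGG (0.62), ERO1LB (0.62), F12 (0.61) and TMPRSS6 (0.59) followed it most closely, and NQO1 (-0.56), NEIL3 (-0.54) and DBP (-0.53) ran most against it. Of the 10, HYOU1 (0.73), CRELD2 (0.67) and HSP90B1 (0.60) followed the mean of the other 9 best. PDIA6 (0.47), HSPA5 (0.46), CANX (0.38), P4HB (0.36) and SEL1L (0.36) lay between, and HERPUD1 (0.18) and CALR (-0.049) hardly followed it.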

How the data were processed

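The authors deposited a table of raw counts per gene for 78 libraries, made with Bowtie on mm10 per the labels, and normalized signal values for 68 of them, made with DESeq2 factors in Partek 10.0.22.0524 per the labels. The normalized signal values that the authors deposited matched (count + 1)/factor to within 0.335%, and were used only to choose the 68 libraries and the 2205 genes tested. From the counts, edgeR 4.0.16 (R 4.3.3, limma 3.58.1) computed TMM factors, CPM (counts of a library scaled to a common total of all 2755 genes with these factors) and 2-sided quasi-likelihood tests of 18 comparisons in a model of the 13 groups, adjusted by Benjamini-Hochberg over 2205 genes. A gene was called when its adjusted p was at most 0.05 with a fold change over 1.5, or at the adjusted p alone for a difference of changes. Total counts of 541245 to 4285848 set the precision, and intervals cover counting error and spread between mice only.

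Alternatives were DESeq2 1.42.0, upper-quartile or RLE factors, testing every gene that had a count, only the groups compared, log2 total count as a covariate, all 78 libraries, the adjusted p alone, leaving out 11 libraries with pancreatic genes above 10 times the median, and leaving out each of the 68 libraries in turn. Thinning to 541245 counts (seed 7) was chosen after seeing the data, as was putting the related lists through the same alternatives. The fitting steps were tested on simulated data. The 10 genes and the related lists were chosen with earlier results of these data known, and all 10 are named whatever their values, while of the related lists the genes called in an exposed group or with age in controls are named. Motifs were searched with Python 3.11.15, pandas 2.3.3 and numpy 2.4.6, and figures drawn with matplotlib 3.10.9. No 2 libraries of a group were duplicates: over 151 pairs the lowest chi-square per degree of freedom was 25.7.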

Additional observations from a re-analysis of the deposited data

Results flagged for a closer look

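In 9 of 120 gene-by-group sets of 4 to 6 mice (7.5%), 1 mouse stood apart from the others by a gap test on CPM. For independent and normally distributed values, chance passes that test in about 1 of 20 sets. Whether these values meet that was not tested. S1-57 mouse 28 was the highest for HSP90B1 (8619 CPM), CALR (1647 CPM) and HYOU1 (5790.1 CPM). The total count of that library was 919268, the lowest of its group, and without it the S1-57 log2 fold changes were 0.45 for HSP90B1, 0.21 for HYOU1 and -0.32 for CALR, not called with or without it. S1-78 mouse 32 was the highest for CALR (1287 CPM) and S1-78 mouse 34 for PDIA6 (77.4 CPM). Control-78 mouse 85 was the highest of its group for PDIA6 (79.1 CPM). The lowest mice were S2-32 mouse 41 for P4HB (202 CPM), S2-78 mouse 47 for SEL1L (41.3 CPM) and S3-78 mouse 59 for HERPUD1 (313 CPM). S2-78 mouse 47 was among the libraries with the most pancreatic RNA, at 16820.2 CPM. Whether depth or pancreatic tissue accounts for these values was not tested.

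In tests of the difference itself, the change from controls differed between S3-57 and S1-10 for CANX (-1.60 on the log2 scale). Between Direct-78 and S1-10 it differed for HSPA5 (-2.67), CANX (-2.09), PDIA6 (-4.70), P4HB (-2.32), CRELD2 (-3.89), SEL1L (-3.60) and HERPUD1 (-3.61). All 7 were lost with log2 total count as a covariate.

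Of the 8 treated libraries that the authors had left out, some held more of a gene than any control library of the same week, by CPM of the total count. For HSP90B1 these were S2-78 mouse 46 (3074 CPM), S3-78 mice 57 (3159 CPM) and 58 (3349 CPM) and Direct-78 mice 61 (4485.5 CPM) and 63 (3234 CPM), against 2625 CPM in the highest Control-78 library, and S3-57 mouse 52 (2264.5 CPM) against 1733 CPM in Control-57. For CALR they were S2-78 mice 46 (1496 CPM) and 48 (2520.2 CPM), S3-78 mice 57 (2983 CPM) and 58 (2337 CPM) and Direct-78 mice 61 (2769 CPM), 62 (2861 CPM) and 63 (1689.9 CPM), against 560.4 CPM in the highest Control-78 library. S3-57 mouse 52 had 3128 CPM of CALR against 1026 CPM in Control-57. Direct-78 mouse 62 had 89.6 CPM of PDIA6 against 73.8 CPM. The same 8 libraries also held less than every control library of their week, in 8 of 8 for CANX (0 to 948 CPM) and HERPUD1 (12.2 to 322 CPM), 7 for P4HB, 5 for PDIA6, 4 each for HSPA5, CRELD2 and SEL1L and 2 for HYOU1. The paper describes its exclusions as a quality filter on the ranking of genes. Low depth or low quality of these libraries was not tested as a source.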

How the results depend on the processing

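Counts of called genes of the 10 moved by more than 1.5 times as follows. RLE and upper-quartile factors each gave 1 in S2-78 and 2 in Control-32 against Control-10. Of all genes RLE factors called 43 and 69 there, and upper-quartile factors 40 and 77. Testing all genes with a count gave 0 in Control-32, where 11 of all genes were called. DESeq2 gave 1 in S1-10, 1 in S1-57, 4 in S2-78, 3 in S3-57, 3 in Control-32, 1 in Control-57 and 1 for the difference of change between S2-32 and S1-10. Its calls over all genes were also more, at 241, 106, 97, 222, 159, 137 and 119 in the same order. The chosen fit called 121, 35, 36, 141, 35, 76 and 41. Fitting only the groups compared, which leaves fewer libraries, gave 1 in S2-32, 0 in S2-78, 3 in Direct-78, 0 in Control-32 and 1 in Control-78. Of all genes that fit called 167, 0, 310, 0 and 39 in the same order, against 235, 36, 539, 35 and 87 with the chosen fit. A covariate of log2 total count gave 0 in S1-32, 1 in S2-32, 1 in S2-78, 0 in Direct-78, 2 in Control-32 and 0 for the difference of change in Direct-78. Of all genes it called 36, 200, 44, 11, 85 and 11 in the same order. All 78 libraries gave 1 in S1-32, 0 in S2-32, 0 in S3-57, 0 in Control-32 and 0 for the difference of change in S3-57. Of all genes, 306, 56, 12, 7 and 157 were called with them in the same order. Without the libraries with pancreas genes, the counts were 1 in S2-32, 2 in S3-57 and 0 in Control-32. Of all genes 177, 104 and 32 were called in the same order, against 235, 141 and 35 with the chosen fit. That setting left 1 Direct-78 library, assumed to vary like the other groups, so no counts are given for Direct-78. The library left, Direct-78 mouse 65, had 0 counts of PDIA6 and CRELD2, so these 2 genes have no fold there. Thinning, chosen after seeing the data, gave 1 in S2-78, 4 in Direct-78 and 0 in Control-32, where it called 15, 185 and 3 of all genes. Thinning also moved the all-gene median of Direct-78, from -0.33 to -0.063, so it did not change depth alone. The causes were not tested. Over all genes, Direct-78 had 539 called, and 11 with the covariate and 185 after thinning.

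Leaving out 1 library gave 2 to 3 called in S1-32, 0 to 3 in S2-32, 1 to 3 in S2-78, 1 to 2 in S3-57, 2 to 3 in S3-78, 4 to 7 in Direct-78, 0 to 2 in Direct-78 against S3-78, 0 to 3 in Control-32 and 1 to 4 in Control-78, and left the other 9 counts unchanged. S2-32 had 0 without Control-32 mouse 75 or 78 and 3 without S2-32 mouse 37 or 38 or Control-32 mouse 73 or 74. S2-78 had 1 without S2-78 mouse 43, 44 or 45 or Control-78 mouse 87, 88, 89 or 90 and 3 without Control-78 mouse 85. S1-32 had 2 without S1-32 mouse 21 or 22 or Control-32 mouse 73, 75, 76 or 78. Without S3-57 mouse 54 S3-57 had 2, and without Control-78 mouse 86 S3-78 had 3. Direct-78 had 4 without Direct-78 mouse 64, 5 without mouse 65 or 66 and 6 without Control-78 mouse 85 or 90. Against S3-78 it had 2 without Direct-78 mouse 66. Control-32 had 0 without Control-10 mouse 69, 71 or 72 or Control-32 mouse 75, 76 or 78, 2 without mouse 73 and 3 without mouse 74. Control-78 had 2 without Control-10 mouse 68, 1 without mouse 72 and 4 without Control-78 mouse 85 or 86. Counts of all genes called in these fits are not given, so the ranges do not show whether other genes moved as well. That was not tested.

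CALR in S1-57 turned to -0.32 without S1-57 mouse 28. HSP90B1 in Direct-78 turned to 0.14 with RLE factors and DESeq2, 0.22 with upper-quartile factors and 0.13 without Direct-78 mouse 65. CALR in Direct-78 turned to -1.59 with the covariate and -0.45 without the pancreas-gene libraries, and SEL1L in S3-78 to 0.0053 with the covariate. The causes were not tested. None of the 29 called values turned, and 3 kept their call throughout, CANX and HERPUD1 in S3-78 and HERPUD1 in Control-78. Of the 29, the covariate removed 20, only the groups compared 10, leaving out the pancreas-gene libraries 10, all 78 libraries 9, thinning 7, and RLE factors, upper-quartile factors and all genes with a count 2 each, while DESeq2 removed 1. Of 95 called values in the lists of related genes, the covariate removed 64, thinning 58, only the groups compared 44, leaving out the pancreas-gene libraries 42, all 78 libraries 38, upper-quartile factors 21, RLE factors 16, all genes with a count 10 and DESeq2 3, and 65 were lost without 1 library. No paired analysis was possible because each mouse number belongs to 1 mouse. Counts of PDIA6 (0 to 10) and CRELD2 (0 to 44) were few in Direct-78, which limits the precision of their values. Whether depth accounts for the low counts was not tested.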
